A study of Mus musculus with 24 samples.

Results

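The genes described are the replication-dependent histone genes of mouse embryonic stem cells, taken as every gene symbol that begins with Hist1h, Hist2h, Hist3h or Hist4h. The deposited count tables held 68 such symbols among 22609, and 61 of the 68 had a read in at least 1 library. All cells were E14TG2a, a feeder-free mouse embryonic stem cell (mESC) line of strain 129/Ola, kept in serum with LIF, the cytokine that holds mESCs in the pluripotent state. Poly-A selected RNA was sequenced as strand-specific 50 bp reads in 24 libraries, 3 in each of 8 groups. There were 5 mESC groups: untransfected cells, and cells stably transfected with a short hairpin. The hairpin was shNMC, a control without a target in mammals, or was directed at Med12 (shMed12), Cdk8 (shCdk8) or Ring1b (shRing1b). The other 3 groups were shNMC, shMed12 and shCdk8 cells left for 24 h in 1e-06 M all-trans retinoic acid (RA) after LIF was taken away, so RA and LIF loss always went together. How many clones or hairpins served each target is not given in the sources used here, and shZrf1 cells and untransfected cells in RA were not analysed here. Nothing in the labels says that the replicates were separate cultures, so p-values measure the spread between these libraries, which may be technical.

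Replication-dependent histone genes supply the core histones H2A, H2B, H3 and H4 and the linker histone H1 that package newly copied DNA, and they are most active in S phase. Their messages mostly have no intron and no poly-A tail: they are cut just after a conserved stem-loop, which is bound by the protein Slbp. Some of these genes also make polyadenylated transcripts that run on past the stem-loop, a form known from differentiating cells and from cells that have left the cell cycle. A poly-A library sees only that second form and whatever untailed RNA passes the selection, so the values here are levels of captured RNA and not of histone mRNA as a whole. In bulk RNA, fewer cells of a type and less RNA per cell cannot be told apart.

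Several sequences are printed first because the stem-loop marks where a histone message without a tail ends. A stem-loop was searched as 16 bases, with a 6-base stem that starts GG, a 4-base loop that starts T, and the reverse complement of the stem, in the GENCODE M21 transcripts of build GRCm38. It was found in 44 of the 67 members that matched by symbol, against 1.16% of 55380 other genes. Capitals mark the stem-loop and lower case its 5 flanking bases on each side. The first 5 lines are members with many reads, and the last 4 are members whose annotated transcript ends soon after the stem-loop.
Hist1h1c: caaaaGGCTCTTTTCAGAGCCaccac
Hist3h2a: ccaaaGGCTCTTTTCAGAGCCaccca
Hist3h2ba: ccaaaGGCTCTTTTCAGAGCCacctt
Hist2h3c1: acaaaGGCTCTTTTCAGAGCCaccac
Hist1h4i: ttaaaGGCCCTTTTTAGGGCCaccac
Hist1h2ab: acaaaGGCTCTTTTCAGAGCCaccca
Hist1h3b: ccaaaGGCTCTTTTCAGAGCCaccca
Hist2h2ac: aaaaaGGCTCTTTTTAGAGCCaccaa
Hist1h4b: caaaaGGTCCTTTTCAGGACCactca
The form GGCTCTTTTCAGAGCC stood in 24 of the 44 members, and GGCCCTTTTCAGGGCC in 7. The printed members had stem-loops of similar form, followed by annotated stretches of different length. The last 4 were picked by that length, so the lengths do not compare members with many and with few reads. The annotated transcript went on for 840 bases past the stem-loop in Hist1h1c, 1643 in Hist3h2a, 1167 in Hist2h3c1, 330 in Hist1h4i and 169 in Hist3h2ba. It went on for 11 bases in Hist1h2ab, 51 in Hist1h3b, 57 in Hist2h2ac and 28 in Hist1h4b.

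The promoters of the Hist3 pair are printed because Hist3h2a and Hist3h2ba, an H2A and an H2B gene a few kilobases apart, were members with called changes in several comparisons. The stretches are the 250 bases before each start, from RefSeq, build GRCm38.p6, plus strand, at chr11:58954435-58954684 for Hist3h2a and chr11:58948661-58948910 for Hist3h2ba. Capitals mark the TATA-box letters TATAAA, the CCAAT box, and the octamer ATTTGCAT, on either strand.
Hist3h2a: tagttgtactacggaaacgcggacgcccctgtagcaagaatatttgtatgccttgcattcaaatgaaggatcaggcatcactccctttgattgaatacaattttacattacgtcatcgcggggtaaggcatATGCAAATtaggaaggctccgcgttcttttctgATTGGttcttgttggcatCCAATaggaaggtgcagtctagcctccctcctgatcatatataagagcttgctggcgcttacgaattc
Hist3h2ba: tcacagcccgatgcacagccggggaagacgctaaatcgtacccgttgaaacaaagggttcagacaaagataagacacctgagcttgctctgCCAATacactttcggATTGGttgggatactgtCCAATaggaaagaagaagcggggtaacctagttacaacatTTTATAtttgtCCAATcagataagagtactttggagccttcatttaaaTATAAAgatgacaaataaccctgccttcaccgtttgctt
The octamer is known from H2A and H2B promoters. In Hist3h2a it lay on the minus strand with its first base 119 bases before the start, next to CCAAT on both strands, and in Hist3h2ba there were 4 CCAAT and 2 TATAAA matches. RefSeq held a promoter for 61 of the 68 members, and the same letters were counted in the same 250-base window of 32851 promoters. ATTTGCAT was present in 7 of 17 H2A and 6 of 16 H2B promoters and in 0 of the H1, H3 and H4 promoters, against 1.6% of all promoters. CCAAT was present in every H1, H2A and H2B promoter with an entry, in 8 of 10 H3 and in 3 of 12 H4 promoters, against 33.9% of all. TATAAA was present in 29 of 61 member promoters, 47.5%, against 12.4% of all. Some H2A and H2B genes are neighbours on opposite strands whose windows overlap, such as Hist1h2aa with Hist1h2ba and Hist1h2ae with Hist1h2bg. A match in the shared bases was counted for both genes, so the H2A and H2B counts are not of separate stretches. A match is a description of letters, and no match says only that these letters are not in this window.

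Reads on these genes were few and unevenly spread. In all, 22263 of 1074822432 gene counts fell on the 68 members, and between 310 and 1619 per library. No read at all was found for 7 members (Hist1h2ao, Hist1h2ap, Hist1h2bq, Hist1h2br, Hist1h4m, Hist2h2aa1 and Hist2h2aa2), 12 had 1 to 24 reads over the 24 libraries and 49 had more. A median of at least 10 reads per library was reached by 13. Hist1h1c, a linker histone gene, alone took 22.8% of all member reads, and the first 5 members took 61.2%. By class, the 6 H1 genes took 36.0%, the 19 H2B genes 27.0%, the 18 H2A genes 17.3%, the 12 H3 genes 12.4% and the 13 H4 genes 7.34%. By cluster, the 54 Hist1 genes took 65.4%, the 10 Hist2 genes 18.4%, the 3 Hist3 genes 15.5% and Hist4h4 0.73%.

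Per kilobase of GENCODE transcript, over all 24 libraries together, Hist1h1c had 3253 reads, Hist1h1a 1816, Hist1h2bc 1800, Hist3h2a 1413, Hist1h4i 1235 and Hist2h2bb 1068. Hist2h3c1 had 900, Hist1h1b 769, Hist2h2be 681 and Hist3h2ba 665 on the same scale. Hist1h1e had 167 and Hist1h1d 81.2. The length used was that of the longest annotated protein-coding transcript, 381 bases for Hist2h2bb and 7425 for Hist1h1d. The order therefore depends on the annotation as well as on reads. The 22 members whose annotated transcript runs over 100 bases past the stem-loop held 61.9% of member reads, with a median of 182 reads per member. The 22 whose transcript ends within 100 bases of it held 6.65%, with a median of 44.5. These medians are raw reads, not divided by transcript length. Per kilobase the first set ran from 15.5 (Hist1h4j) to 3253 (Hist1h1c), with Hist1h2ac (95.1) and Hist1h3e (103) in its middle. The second set ran from 0 to 443 (Hist1h2bj), with Hist1h2bf (84.6) and Hist1h4h (106) in its middle. Per kilobase, the middle of the 2 sets was therefore alike. A further 23 members, among them Hist1h2bc, Hist2h2be, Hist1h1a and Hist1h1b, had no stem-loop match in GENCODE and held 30.9%, with a median of 37.0.

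Many members are near copies of each other, so reads that fit several genes could be lost or moved by the counting, whose treatment of such reads is not given in the sources used here. In 36 members more than 50% of the 50-base windows of the transcript occurred in no other gene, and their median was 163 reads. In 28 members the share was above 0 and up to 50%, with a median of 33.5 reads. The 7 members without a read had 0% to 10.6% of such windows. Low counts of such members are therefore uncertain as levels. Every window of Hist2h3c1, which had 1643 reads, was also present in the gene model Gm20634, so its reads cannot be assigned by sequence alone. Hist3h2a shared 31.5% of its windows with the overlapping gene Trim17, which itself had 3 to 20 reads in mESC libraries and 33 to 114 in RA libraries; its part in the Hist3h2a counts was not tested.

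**Figure D1:**
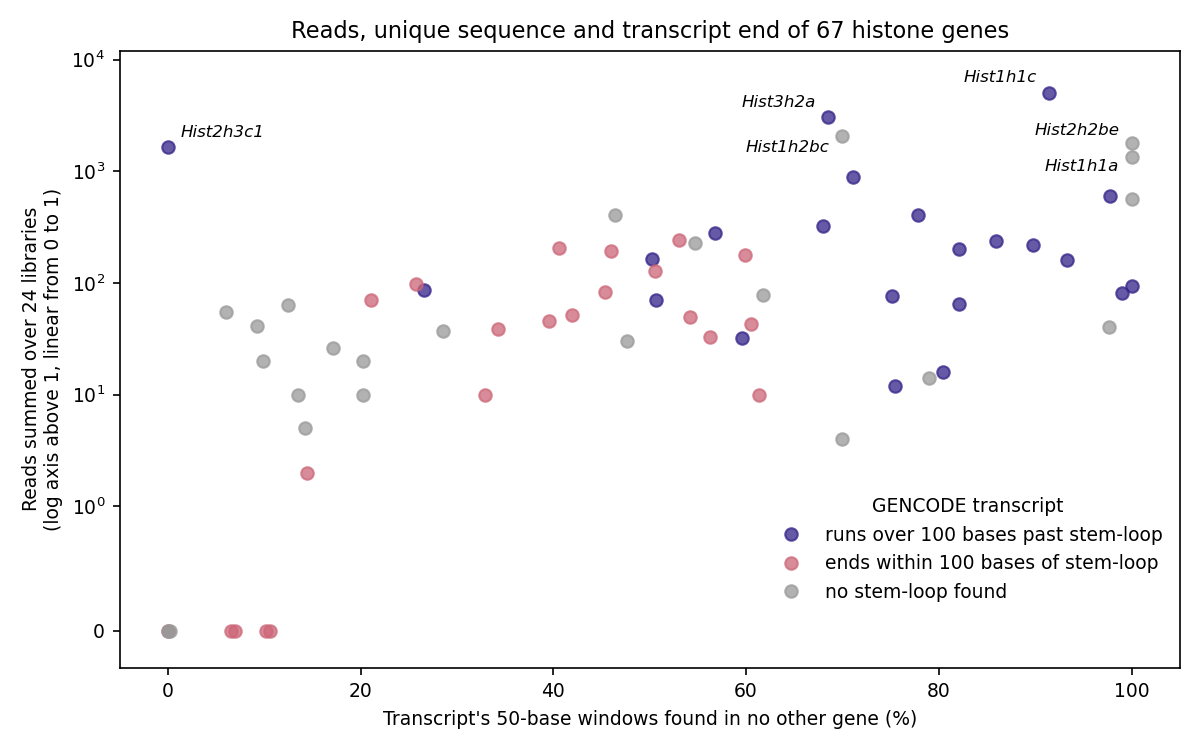
Total reads of 67 members (log axis) against the percent of 50-base transcript windows found in no other gene, coloured by where the annotated transcript ends. Members with few unique windows lie low, except Hist2h3c1 with 1643 reads at 0%.

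Libraries fell into sets by depth. The 6 untransfected and shRing1b libraries had 27.4 to 34.1 M gene counts and 20.02% to 21.7% of reads with several alignments, and the other 18 had 37.8 to 57.3 M and 44.1% to 49.1%. A count of 3 stood for 0.0464 to 0.12 CPM, the usual unit of counts relative to library size, here with TMM-scaled library sizes. The pluripotency marker list summed to 5626 to 6236 CPM in untransfected and shNMC mESCs. Med12 fell from 133 ± 5.48 CPM (SD, n = 3) to 41.7 ± 5.76 with its hairpin, and Cdk8 from 53.4 ± 3.06 to 12.8 ± 2.26. Rnf2, the gene that encodes Ring1b, stood at 221, 303 and 262 CPM in untransfected cells and at 52.4 and 64.2 in shRing1b replicates 1 and 2. The library labelled shRing1b replicate 3 had 207 CPM, next to the untransfected range, so each shRing1b result is given with and without it.

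Summed over the 68 members, captured RNA was lowest on average in shMed12 mESCs, at 13.4 ± 1.53 CPM (SD, n = 3), and highest in shRing1b replicates 1 and 2. The sum was 17.3, 15.8 and 21.3 CPM in shNMC mESCs, 20.2, 12.4 and 16.8 in untransfected cells, 21.2, 16.6 and 16.5 with shCdk8 and 15.2, 12.6 and 12.4 with shMed12. The shNMC, untransfected and shCdk8 libraries overlapped, and all shMed12 libraries lay below all shNMC and shCdk8 libraries. With shRing1b it was 42.3 and 39.9 in replicates 1 and 2 and 17.3 in the library labelled replicate 3. After RA it was 28.0, 28.7 and 20.4 with shNMC, 25.3, 22.4 and 18.6 with shCdk8 and 18.7, 19.7 and 18.0 with shMed12. The RA and mESC libraries did not overlap with shMed12, and overlapped with shNMC and with shCdk8. No test was made of a sum over members.

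**Figure D2:**
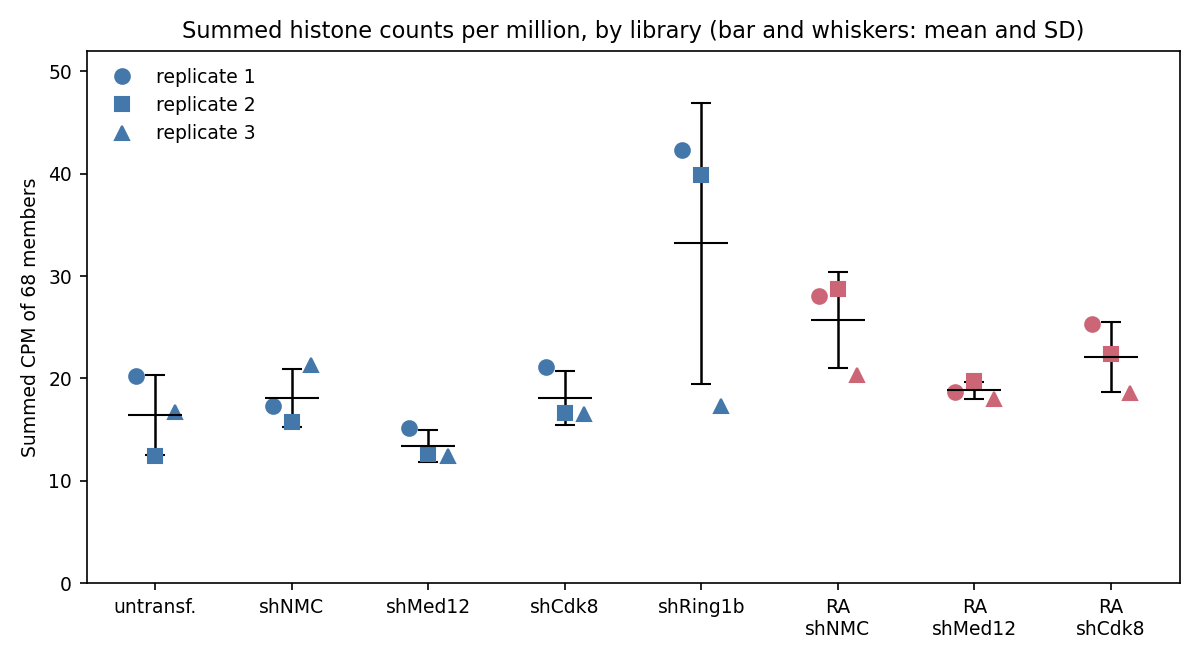
Summed CPM of the 68 members in each library by group, with the group mean as a line. The shRing1b group spans 17.3 to 42.3 CPM, and the shMed12 mESC libraries lie at 12.4 to 15.2.

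The filter on low counts kept 24 of the 68 members among 16280 genes, and tests refer to these 24. They are not all members, and a member that passed through a single high group had to differ. A change was called at an edgeR quasi-likelihood adjusted p (Benjamini-Hochberg, over all genes) under 0.05, and log2 changes carry their SE. Comparisons with the same shNMC or untransfected libraries share those controls, so their values stand side by side only.

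**Figure D3:**
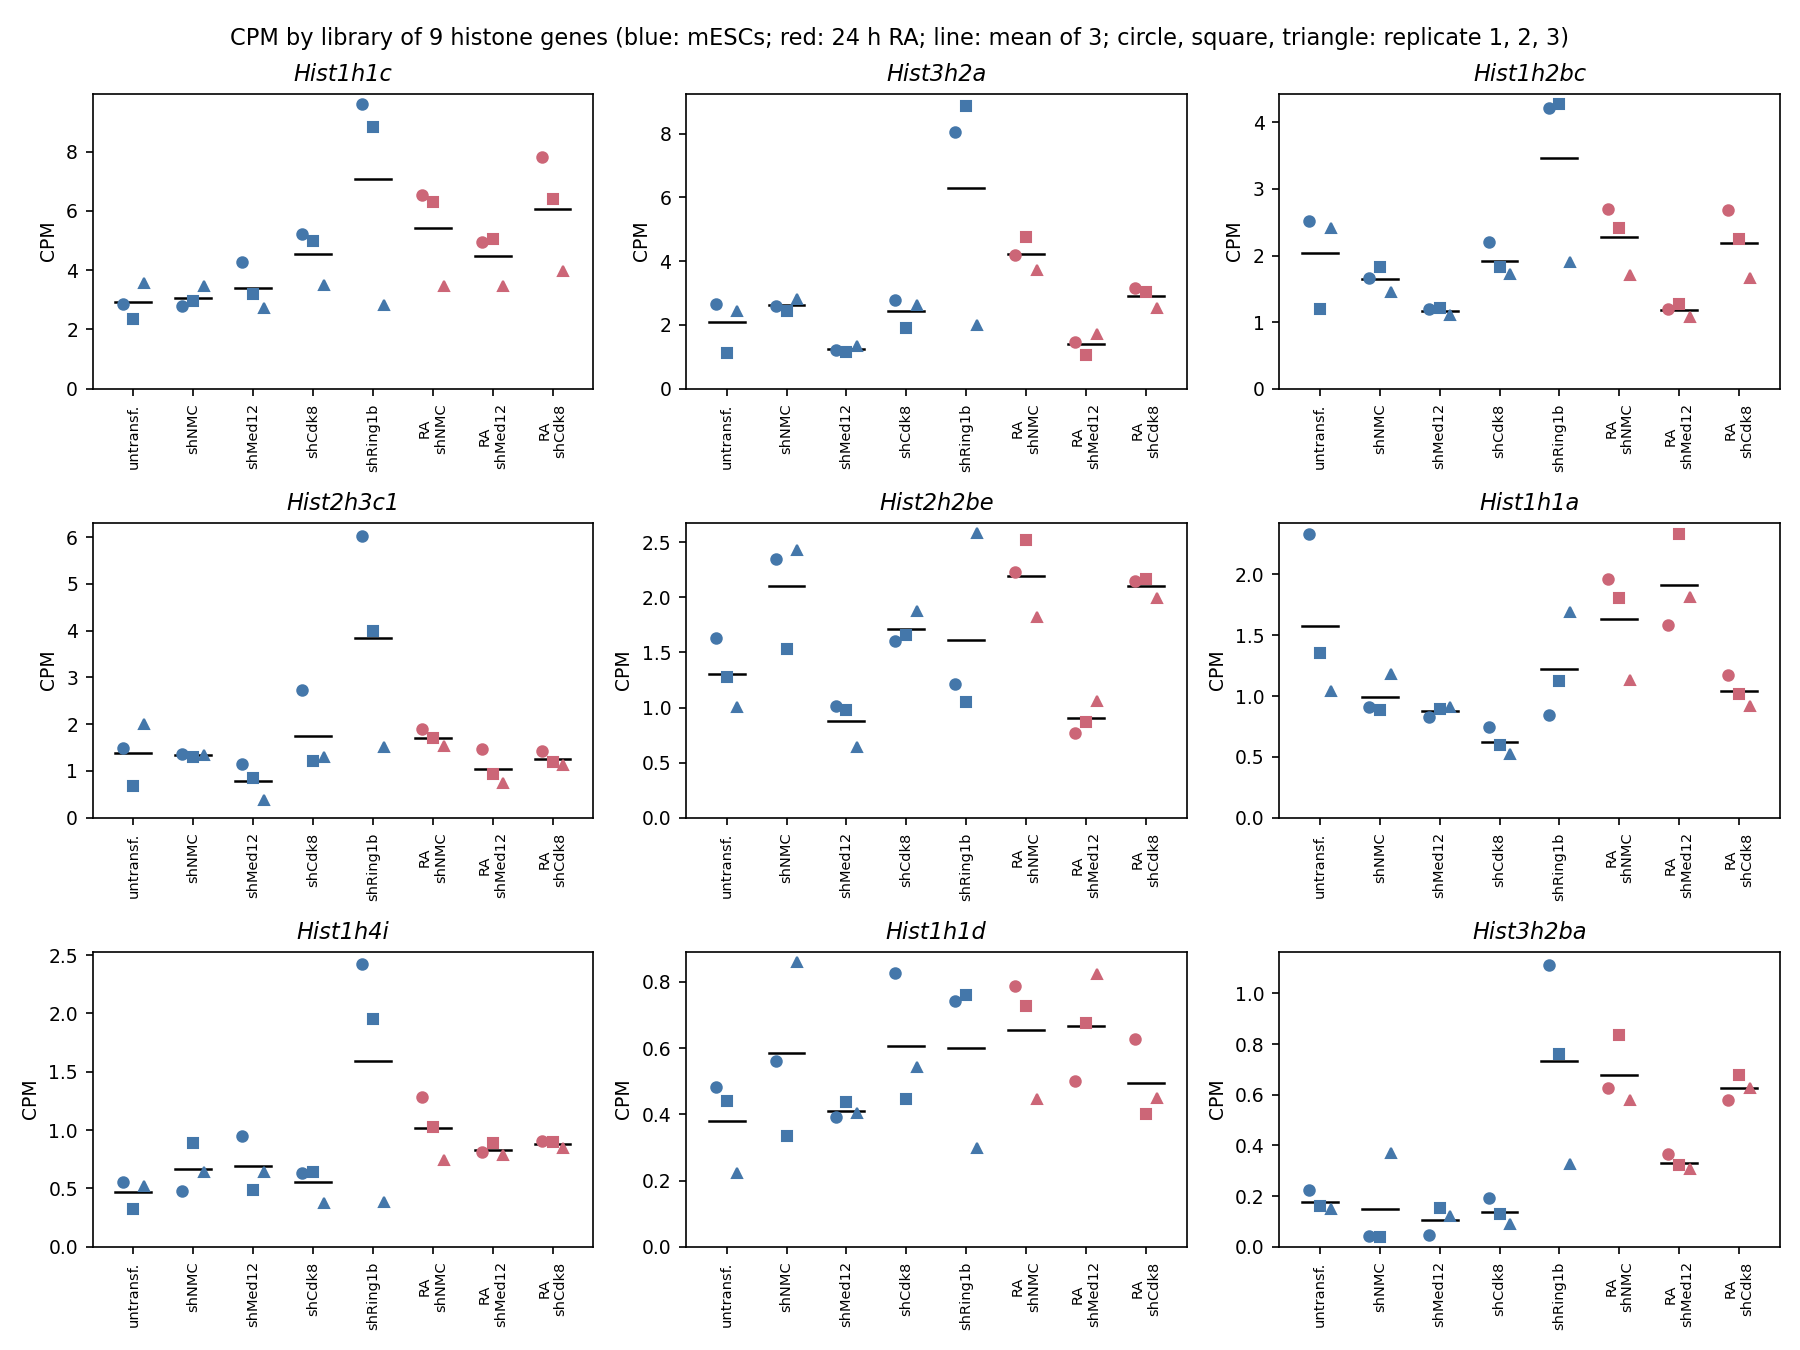
CPM of 9 members in every library, mESC groups in blue and RA groups in red, circle, square and triangle for replicates 1, 2 and 3, and a line for the mean. Hist3h2ba averages 0.15 CPM (SD 0.19) in shNMC mESCs and is at 0.577 to 0.834 in the RA shNMC libraries, and Hist2h2be is at 0.645 to 1.06 in every shMed12 library.

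RA raised the H2B gene Hist3h2ba and the linker histone gene Hist1h1a in all 3 hairpin backgrounds, and few other members were called. Hist3h2ba had 2, 2 and 15 reads in shNMC mESCs (0.0415, 0.0393 and 0.369 CPM) and 35, 47 and 31 after RA (0.626, 0.834 and 0.577 CPM). Its mESC replicate 3 stood above the other mESC libraries and still below all RA libraries. The change was a log2 of 2.26 ± 0.52 (adjusted p = 0.00108), with 2.23 ± 0.53 in shCdk8 cells (adjusted p = 0.00131) and 1.61 ± 0.59 in shMed12 cells (adjusted p = 0.0359), where reads went from 2, 6 and 6 to 19, 18 and 17. Both mESC shNMC replicates with 2 reads lay under the floor of 3 counts. The same shNMC replicate 3 held 6.34 CPM of 3 RNAs made without a poly-A tail (Rmrp, Rpph1 and Terc, chosen after their values were seen), against 1.47 and 1.5 in its replicates. The part of such RNA in the Hist3h2ba count was not tested. After RA, replicates 1, 2 and 3 held 1.86, 2.08 and 1.08 CPM of these RNAs with shNMC. They held 1.14, 1.53 and 0.986 with shMed12 and 1.04, 1.56 and 0.784 with shCdk8. Whether untailed RNA had a part in the RA values of the members was not tested.

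Among the linker histones, Hist1h1a had 44, 45 and 48 reads in shNMC mESCs (0.913, 0.885 and 1.18 CPM) and 110, 102 and 61 after RA (1.97, 1.81 and 1.14 CPM). RA replicate 3 fell within the mESC range, so the groups overlapped. The log2 change was 0.73 ± 0.28 (adjusted p = 0.0368) in shNMC, 1.12 ± 0.29 (adjusted p = 0.004) in shMed12 and 0.75 ± 0.30 (adjusted p = 0.0406) in shCdk8 cells. Hist1h1c, the most abundant member, went from 134, 151 and 141 reads (2.78, 2.97 and 3.47 CPM) to 365, 356 and 187 (6.52, 6.32 and 3.48 CPM) in shNMC cells. RA replicates 1 and 2 were high and replicate 3 lay just above the highest mESC library, for a log2 change of 0.83 ± 0.34 (adjusted p = 0.0489). Hist1h1c read counts with shCdk8 went from 189, 234 and 193 to 472, 415 and 202, again with a low replicate 3, and its log2 value of 0.42 was not called (adjusted p = 0.314). Hist1h1b rose in shMed12 cells, from 18, 10 and 18 reads to 33, 43 and 63 without overlap (log2 1.28 ± 0.33, adjusted p = 0.00429). Hist1h1e rose in shCdk8 cells, from 11, 4 and 9 reads to 20, 23 and 20 (log2 1.01 ± 0.40, adjusted p = 0.0379). Hist1h2bp, an H2B gene, fell in shCdk8 cells from 13, 19 and 12 reads to 7, 4 and 10 (log2 -1.40 ± 0.48, adjusted p = 0.0195).

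In counts, 3 of 24 tested members rose with RA in shNMC cells and 0 fell, where 27.3% of all tested genes rose and 24.1% fell. In shMed12 cells 3 rose and 0 fell (19.6% and 17.5% of all genes), and in shCdk8 cells 3 rose and 1 fell (26.7% and 25.1%). The median log2 change of the tested members was 0.46, 0.48 and 0.27 in the 3 backgrounds, against 0.02, 0.03 and 0.01 for all genes, and 20, 23 and 20 of 24 lay above 0. With single libraries left out, the member median ran from 0.28 (without RA shNMC replicate 2) to 0.69 in shNMC, from 0.38 to 0.67 in shMed12 and from 0.18 to 0.38 in shCdk8 cells. Over the other alternatives it ran from 0.35 to 0.71, from 0.27 to 0.66 and from 0.27 to 0.49. Scaling to library size with no TMM factor moved the median of all genes by 0.25, 0.15 and 0.23 log2. It also moved the share of higher among called genes from 53.1% to 78.3%, 52.8% to 74.2% and 51.5% to 75.4%, and called 6 members higher and 0 lower in shNMC cells. Without single libraries, Hist1h1a in shNMC cells lost its call when shNMC mESC replicate 1 or 2 or RA replicate 1 or 2 was left out (log2 0.57 to 0.70, adjusted p 0.0959 to 0.147), and Hist1h1c when any shNMC mESC replicate or RA replicate 1 or 2 was left out (0.67 to 0.96, adjusted p 0.0568 to 0.158). Hist3h2ba in shMed12 lost it without mESC replicate 1 or 3 or any RA replicate (1.26 to 1.72, adjusted p 0.0553 to 0.144). In shCdk8 cells the same held for Hist1h1a without mESC replicate 2 or 3 or RA replicate 1 or 2 (0.66 to 0.77, adjusted p 0.0737 to 0.129), Hist1h1e without mESC replicate 2 or 3 or any RA replicate (0.69 to 1.07, adjusted p 0.057 to 0.182) and Hist1h2bp without mESC or RA replicate 1 or 2 (-1.36 to -1.05, adjusted p 0.0541 to 0.108).

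The gene lists around the histone genes are given against the same shares of all genes, 24.1% lower and 27.3% higher with RA in shNMC cells. Of 25 S phase and DNA replication genes, 21 fell with RA in shNMC cells and 0 rose, among them the licensing factor Cdt1 (log2 -0.85 ± 0.08, adjusted p = 3.22e-08), the kinase gene Cdk2 (-0.72 ± 0.07, adjusted p = 2.3e-08), the helicase subunit gene Mcm7 (-0.66) and the polymerase gene Pola1 (-0.71). In shMed12 cells 8 fell, where 17.5% of all genes did, and in shCdk8 cells 22, where 25.1% did. Of 20 genes for histone mRNA transcription and processing, 10 fell in shNMC cells, 8 in shMed12 and 10 in shCdk8 cells, led in shNMC by Zfp473, a partner of the histone pre-mRNA cleavage machinery (-0.91), and Srrt (-0.85). Npat and Casp8ap2, which act at histone gene transcription, were at -0.24 (adjusted p = 0.0186) and -0.25 (adjusted p = 0.0222), and Slbp at -0.23 (adjusted p = 0.139). With no TMM factor only 11 S phase and 3 processing genes were lower in shNMC cells, 1 S phase gene was higher, the median of the processing list turned from -0.23 to 0.02, and neither Npat nor Casp8ap2 was called. Of 15 histone chaperone genes 9 fell and 1 rose in shNMC cells, Chaf1b with the lowest adjusted p (log2 -0.69). Of 12 tested replication-independent histone genes, most of whose messages carry a poly-A tail, 4 rose and 3 fell. The linker histone gene H1f0 went from 65.9 ± 1.30 to 163 ± 12.6 CPM (log2 1.31 ± 0.15, adjusted p = 5.19e-07), H1fx rose by 1.06, H3f3b by 0.45, and H2afz fell by 0.55.

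**Figure D4:**
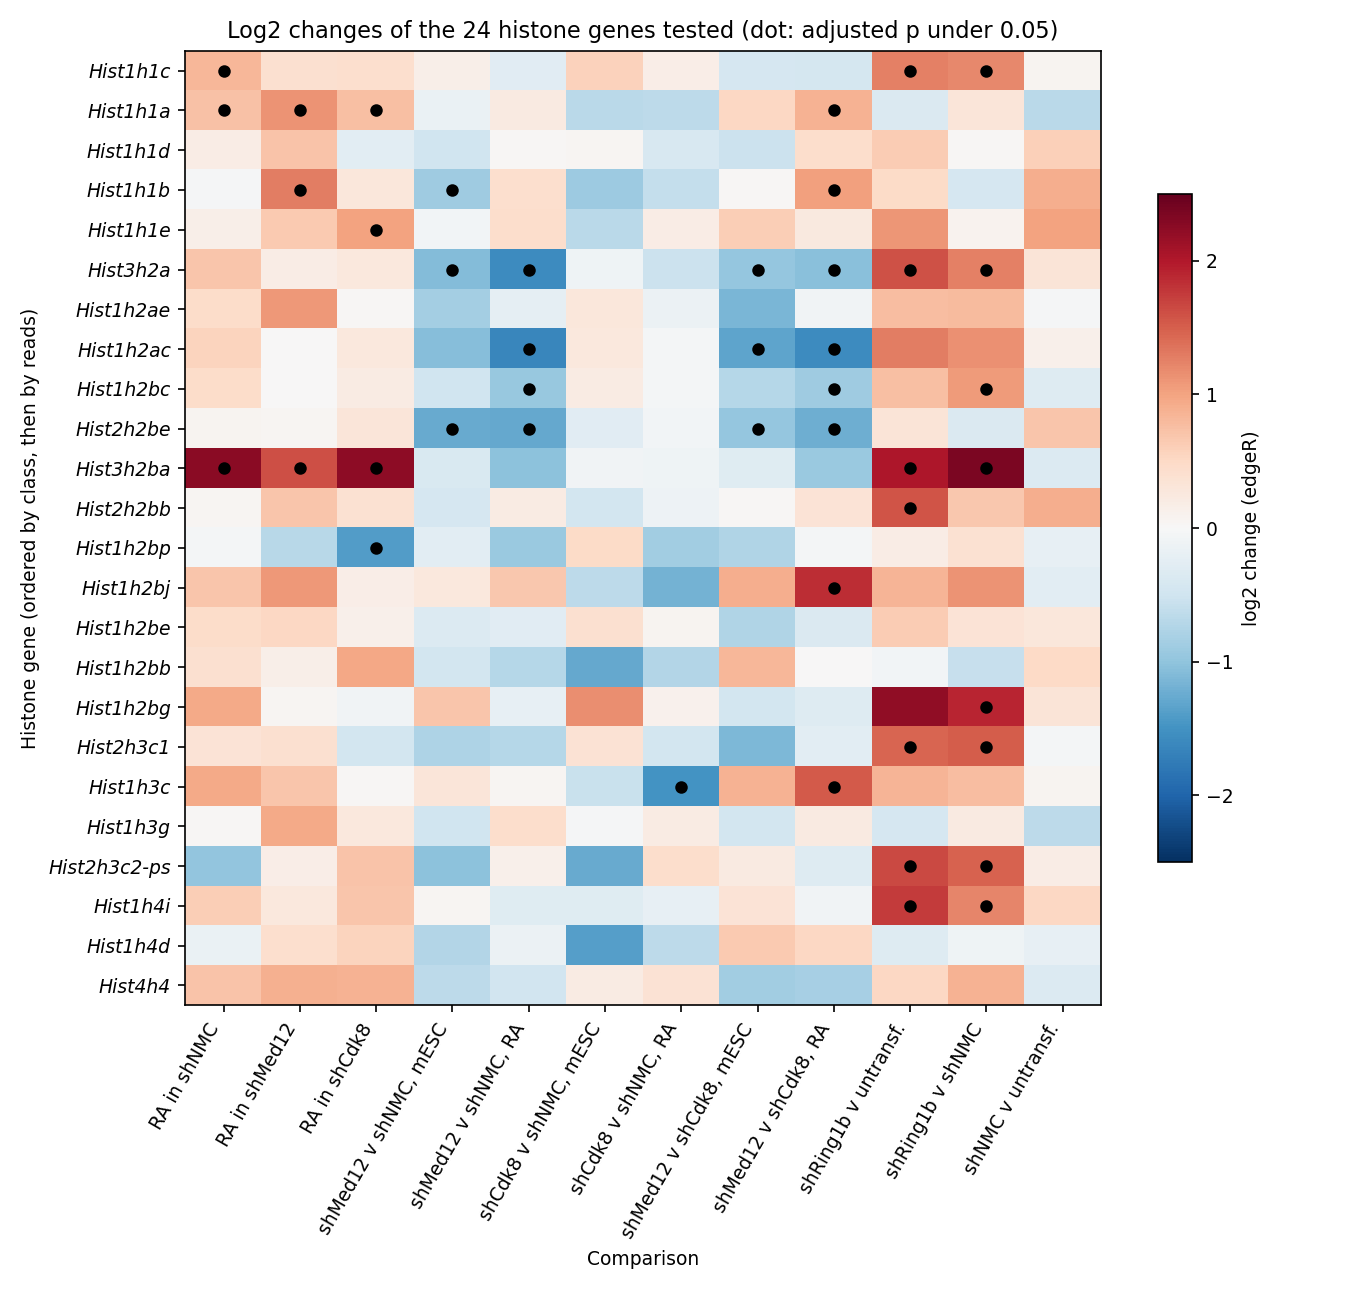
Log2 changes of the 24 tested members (rows) in 12 comparisons (columns), with a dot where the change was called. Hist3h2ba is higher in all 3 RA columns, and Hist2h2be and Hist3h2a are lower in the shMed12 columns.

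The Med12 hairpin lowered Hist2h2be, an H2B gene, and Hist3h2a, an H2A gene, in mESCs and again after RA. Hist2h2be had 113, 78 and 99 reads in shNMC mESCs (2.35, 1.53 and 2.43 CPM) and 44, 38 and 32 with shMed12 (1.02, 0.975 and 0.645 CPM). After RA it had 125, 142 and 98 reads (2.23, 2.52 and 1.83 CPM) with shNMC and 40, 49 and 59 (0.772, 0.874 and 1.06 CPM) with shMed12. The groups did not overlap in either state, with log2 changes of -1.26 ± 0.29 (adjusted p = 0.00125) and -1.28 ± 0.28 (adjusted p = 0.000872). Hist3h2a went from 125, 124 and 115 reads (2.60, 2.44 and 2.83 CPM) to 53, 45 and 66 (1.22, 1.15 and 1.33 CPM) in mESCs. After RA it went from 235, 269 and 200 reads (4.20, 4.77 and 3.72 CPM) to 76, 60 and 95 (1.47, 1.07 and 1.70 CPM). Each shMed12 library lay below every shNMC library of its state, and the log2 changes were -1.08 ± 0.37 (adjusted p = 0.0247) and -1.58 ± 0.36 (adjusted p = 0.00132). Summed over the class, H2A genes stood at 3.37 ± 0.42 CPM (SD, n = 3) with shNMC and 1.78 ± 0.15 with shMed12 in mESCs, and at 5.21 ± 0.848 and 2.11 ± 0.327 after RA. Hist3h2a held 3033 of the 3861 H2A reads over all libraries. The class sum therefore mostly repeats this gene and does not show a fall across the class.

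Of the linker histone genes, Hist1h1c stood at 3.07 ± 0.353 CPM (SD, n = 3) with shNMC and 3.41 ± 0.797 with shMed12 in mESCs, and at 5.44 ± 1.70 and 4.49 ± 0.875 after RA. The linker histone gene called was Hist1h1b, lower in mESCs, from 28, 28 and 33 reads to 18, 10 and 18 (log2 -0.89 ± 0.34, adjusted p = 0.0421). After RA its values overlapped between the hairpins and the log2 value was 0.43 (adjusted p = 0.269). Further H2A and H2B genes fell after RA: Hist1h2ac from 16, 25 and 7 reads to 5, 4 and 6 (log2 -1.62 ± 0.46, adjusted p = 0.00751), and Hist1h2bc from 151, 136 and 92 reads (2.70, 2.41 and 1.71 CPM) to 62, 71 and 60 (1.2, 1.27 and 1.08 CPM; log2 -0.95 ± 0.28, adjusted p = 0.0103). In neither did the groups overlap. Hist3h2ba was at -1.03 after RA without a call (adjusted p = 0.0683).

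In counts, 3 of 24 tested members fell with shMed12 in mESCs and 0 rose, where 19.9% of all genes fell and 20.6% rose, and 4 fell and 0 rose after RA, where 20.6% fell and 21.3% rose. The median member change was -0.47 and -0.25, against -0.01 and -0.004 for all genes. With single libraries left out it ran from -0.66 to -0.13 in mESCs (without shNMC replicate 2 and 3) and from -0.51 to -0.07 after RA (without RA shNMC replicate 3 and 2). Over the other alternatives it ran from -0.49 to -0.38 in mESCs, and after RA from -0.705 with a filter of 1 CPM to 0.0022 with no filter on low counts. In mESCs, leaving out shNMC replicate 1 or 3 or any shMed12 replicate ended the calls of Hist3h2a (log2 -1.12 to -1.0, adjusted p 0.0509 to 0.0796) and Hist1h1b (-1.03 to -0.68, adjusted p 0.0529 to 0.179). After RA, Hist1h2ac lost its call without shNMC replicate 2 (-1.19, adjusted p = 0.0716) and Hist1h2bc without shNMC replicate 1 (-0.81, adjusted p = 0.0507).

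The other gene lists are read against the 20.6% higher and 19.9% lower of all genes in mESCs and the 21.3% and 20.6% after RA. Of 12 tested replication-independent histone genes 7 fell in mESCs and 6 after RA and 0 rose, with H1f0 at 163 ± 12.6 CPM in RA shNMC and 79.8 ± 8.80 in RA shMed12 libraries (log2 -1.03 ± 0.15, adjusted p = 1.34e-05). Of 25 S phase genes 11 fell and 1 rose in mESCs, Pola1 most surely (log2 -0.83 ± 0.08, adjusted p = 7.84e-08), and 7 fell and 6 rose after RA. Of the 20 processing genes 2 rose and 1 fell in mESCs, and 5 rose after RA, among them Npat (0.33 ± 0.08, adjusted p = 0.00231). Slbp was at 0.13 (adjusted p = 0.433) and 0.24 (adjusted p = 0.132). Trophectoderm markers, all 9 of those tested called higher in both states, summed to 575 to 748 CPM in shMed12 mESCs against 17.6 to 23.3 with shNMC, and to 711 to 934 against 36.1 to 48.2 after RA. Fibroblast markers summed to 346 to 392 CPM against 16.4 to 19.2 in mESCs and to 344 to 387 against 40.0 to 41.9 after RA. Of the 9 fibroblast markers tested, 7 were called higher and 1 lower in each state. Of 10 pluripotency markers 8 fell in each state and 1 rose after RA. No listed marker of these lists was at 0 in every library, and their part in the histone changes was not tested.

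The Cdk8 hairpin changed few members. In mESCs 0 of 24 tested members were called by edgeR or by DESeq2, where 3.66% of all genes were called by edgeR, and 2 passed an unadjusted p under 0.05. These were Hist1h1a, with 44, 45 and 48 reads in shNMC and 27, 28 and 29 in shCdk8 libraries (log2 -0.68 ± 0.31, adjusted p = 0.24), and Hist1h1b, at -0.91 ± 0.34 (adjusted p = 0.144). The groups did not overlap for either in CPM. After RA 1 member was called, where 7.73% of all genes were: the H3 gene Hist1h3c went from 14, 28 and 14 reads to 11, 7 and 3 (log2 -1.49 ± 0.45, adjusted p = 0.0431). DESeq2 called 0 members there, and leaving out any RA shNMC replicate or RA shCdk8 replicate 2 or 3 ended the call (-1.66 to -1.09, adjusted p 0.0508 to 0.241). Same-numbered libraries deviated together here (all 3 correlations over 0.1), though no label says that they were paired. A replicate block on the 2 groups alone called 5 members. The share of all genes called in that fit is not given here. Hist2h2be and Hist3h2a, lower with shMed12, stood at 1.71 ± 0.146 and 2.44 ± 0.463 CPM (SD, n = 3) in shCdk8 mESCs against 2.10 ± 0.496 and 2.62 ± 0.195 in shNMC mESCs.

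Compared directly in mESCs, shMed12 cells had less Hist2h2be, Hist3h2a and Hist1h2ac RNA than shCdk8 cells. Hist2h2be had 58, 78 and 104 reads with shCdk8 (1.6, 1.66 and 1.88 CPM) and 44, 38 and 32 with shMed12, without overlap (log2 -0.97 ± 0.29, adjusted p = 0.0112). Hist3h2a was at -0.98 ± 0.37 (adjusted p = 0.0458), and Hist1h2ac, with 8, 13 and 11 against 7, 3 and 2 reads, at -1.31 ± 0.51 (adjusted p = 0.0495). These 3 of 24 fell and 0 rose, where 17.4% of all genes fell and 18.4% rose. Same-numbered libraries deviated together here as well, again with no pairing named in the labels. The replicate block over all 24 libraries called 5 members lower, without a share of all genes to set beside it. Hist2h2be lost its call without shMed12 replicate 3 (-0.77, adjusted p = 0.0756), Hist3h2a without any shMed12 replicate or shCdk8 replicate 1 or 3 (-1.02 to -0.87, adjusted p 0.0846 to 0.125), and Hist1h2ac without shMed12 replicate 2 or 3 or any shCdk8 replicate (-1.41 to -0.91, adjusted p 0.0695 to 0.219).

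After RA the direct comparison gave called members in both directions. Higher with shMed12 were the linker histone genes Hist1h1a (log2 0.88 ± 0.28, adjusted p = 0.0146) and Hist1h1b (1.02 ± 0.31, adjusted p = 0.012), the H3 gene Hist1h3c (1.54 ± 0.44, adjusted p = 0.00832) and the H2B gene Hist1h2bj. Hist1h2bj had 8, 3 and 6 reads with shCdk8 and 25, 20 and 13 with shMed12 (1.85 ± 0.49, adjusted p = 0.00441). Lower with shMed12 were the H2A genes Hist1h2ac (-1.57 ± 0.46, adjusted p = 0.00968) and Hist3h2a (-1.04 ± 0.36, adjusted p = 0.0248) and the H2B genes Hist2h2be (-1.22 ± 0.28, adjusted p = 0.0014) and Hist1h2bc (-0.90 ± 0.28, adjusted p = 0.0145). In all 8 the groups did not overlap, but the share of all genes without overlap is not given here, so this does not single out the members. Thus 4 of 24 rose and 4 fell, where 21.3% and 20.1% of all genes did, and with no TMM factor the share of higher among all called genes went from 51.4% to 38.7%. Calls ended without RA shMed12 replicate 3 for Hist1h1b (0.76, adjusted p = 0.0886), without that library or RA shCdk8 replicate 1 for Hist1h2bc (-0.83 to -0.73, adjusted p 0.0526 to 0.0756), without RA shMed12 replicate 2 or RA shCdk8 replicate 3 for Hist1h1a (0.71 to 0.77, adjusted p 0.0662 to 0.085), and without replicate 1 or 2 of either group for Hist3h2a (-1.10 to -0.88, adjusted p 0.0504 to 0.11).

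Whether the hairpins altered the RA response was tested as an interaction, and no member passed. For shMed12, edgeR and DESeq2 each called 0 of 24 members, where edgeR called 5.04% of all genes, and 1 member passed an unadjusted p under 0.05. This was Hist1h1b, lower with shMed12 in mESCs but not after RA, with an interaction of 1.31 ± 0.46 log2 (adjusted p = 0.107, and 0.0116 to 0.281 over the alternatives). For Hist3h2ba and Hist1h1a the RA effects in the hairpin cells and in shNMC cells were therefore not shown to differ. For shCdk8, edgeR and DESeq2 called 0 members, 0 passed unadjusted, and 0.0369% of all genes were called.

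The shRing1b group held the highest levels of several members, in replicates 1 and 2. Hist3h2a had 72, 28 and 66 reads in untransfected cells (2.67, 1.12 and 2.45 CPM), 239 and 245 reads in shRing1b replicates 1 and 2 (8.05 and 8.87 CPM), and 67 reads (1.99 CPM) in the library labelled replicate 3. Hist1h1c had 77, 59 and 96 reads (2.86, 2.35 and 3.57 CPM) against 285, 244 and 95 (9.60, 8.83 and 2.82 CPM). Hist2h3c1, an H3 gene, had 40, 17 and 54 reads against 179, 110 and 51, and the H4 gene Hist1h4i 15, 8 and 14 against 72, 54 and 13. In these 4 members replicates 1 and 2 lay above every untransfected library and the library labelled replicate 3 lay within their range. Hist3h2ba, with 6, 4 and 4 reads against 33, 21 and 11, was the called member whose groups did not overlap. Rmrp, Rpph1 and Terc, made without a poly-A tail, summed to 1.72, 2.17 and 0.386 CPM in shRing1b replicates 1, 2 and 3. In untransfected cells they summed to 1.52, 0.958 and 0.594 CPM. Whether untailed RNA had a part in the shRing1b values of the members was not tested.

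With all 3 libraries, 7 of 24 tested members rose against untransfected cells and 0 fell, where 9.68% of all genes rose and 5.42% fell. They were Hist3h2a (log2 1.59 ± 0.37, adjusted p = 0.00658), Hist1h4i (1.75 ± 0.46, adjusted p = 0.0146), Hist1h1c (1.27 ± 0.36, adjusted p = 0.0205), Hist3h2ba (2.02 ± 0.58, adjusted p = 0.0224), Hist2h3c1 (1.46 ± 0.44, adjusted p = 0.03), and, near the threshold, Hist2h3c2-ps and Hist2h2bb (adjusted p = 0.0466 and 0.0495). DESeq2 called 6. The median of the 24 was 0.81 against 0.02 for all genes, and 20 lay above 0. It ran from 0.60 to 1.08 with single libraries left out and from 0.68 to 1.28 over the other alternatives. Without the library labelled replicate 3, 12 of 26 tested members rose and 0 fell, where 14.0% of 16428 genes rose and 9.71% fell, with Hist3h2a at 2.02, Hist1h4i at 2.23, Hist1h1c at 1.66, Hist3h2ba at 2.39 and Hist2h3c1 at 1.84. That comparison set 2 libraries against 3, and Rnf2 was then at -2.16 where it was -1.27 with all 3. The members added to the test were Hist1h2ba and Hist1h3a. Hist1h2ba, with 7 and 9 reads in shRing1b replicates 1 and 2, passed the filter through these libraries. It is counted among the 12 (log2 2.41), but the filter favoured its call, which adds no support. Hist2h3c2-ps had 7, 2 and 2 reads in untransfected and 19, 13 and 8 in shRing1b libraries, and passed the filter mainly through the shRing1b group. It is counted among the 7 called with all 3 libraries and among the 12, and the filter favoured these calls too, which add no support. A fit on the 2 groups alone, with all 3 libraries, called 0 members, but Hist3h2ba, Hist2h3c2-ps and Hist2h2bb were not tested in it. The share of all genes called in that fit is not given here, so the 0 does not single out the members.

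Other single libraries bore on these calls. Hist3h2a kept its call whichever untransfected or shRing1b library was left out. The call of Hist1h4i ended without untransfected replicate 2 or shRing1b replicate 1 (log2 1.28 to 1.54, adjusted p 0.0592 to 0.0796), that of Hist1h1c without untransfected replicate 2 or shRing1b replicate 1 or 2 (0.98 to 1.14, adjusted p 0.0679 to 0.0865), and that of Hist3h2ba without untransfected replicate 2 or 3 or shRing1b replicate 1 (1.57 to 1.95, adjusted p 0.0642 to 0.0948). Hist2h3c1 needed untransfected replicates 1 and 2 and shRing1b replicates 1 and 2 (0.96 to 1.51, adjusted p 0.0525 to 0.161). Hist2h3c2-ps and Hist2h2bb needed untransfected replicates 2 and 3 and shRing1b replicates 1 and 2 (1.30 to 1.61 and 1.18 to 1.57).

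Against shNMC mESCs the values were of similar size, but shNMC and shRing1b libraries differ in depth and in multi-aligned reads, and that difference and the hairpin cannot be told apart. Of 24 members 8 rose and 0 fell (12.9% and 7.36% of all genes; DESeq2 called 6), and the median was 0.78. It ran from 0.52 to 1.04 with single libraries left out and from 0.37 to 1.22 over the other alternatives. Hist3h2ba was at 2.35 ± 0.54 (adjusted p = 0.00412) and Hist1h2bc, with 80, 93 and 59 reads in shNMC and 125, 118 and 64 in shRing1b libraries, at 1.06 ± 0.28 (adjusted p = 0.0111). Both kept their calls whichever library of the 2 groups was left out. Hist3h2a (1.26), Hist2h3c1 (1.51), Hist1h1c (1.2), Hist1h4i (1.23), Hist2h3c2-ps (1.47) and Hist1h2bg (1.89) lost theirs without shNMC replicate 1 or shRing1b replicate 1, and all but Hist1h4i without shNMC replicate 2. All of these but Hist2h3c1 also lost it without shRing1b replicate 2, and Hist1h4i, Hist2h3c2-ps and Hist1h2bg without shNMC replicate 3 (log2 0.77 to 2.28, adjusted p 0.0502 to 0.245 over these). Without the library labelled replicate 3, 11 of 26 rose and 1, Hist2h2be, fell (log2 -0.88, adjusted p = 0.015), where 16.6% and 11.8% of all genes did. The 11 include Hist1h2ba (log2 2.87), and both the 8 and the 11 include Hist2h3c2-ps. The filter favoured these calls as it did against untransfected cells. A fit on the 2 groups alone called 0 members, again without a share of all genes to set beside it, and did not test Hist2h3c2-ps and Hist1h2bg. With no TMM factor the share of higher among all called genes went from 64.1% to 82.0% against untransfected and from 63.6% to 80.0% against shNMC cells.

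The lists around the histone genes gave counts that depended on the library labelled shRing1b replicate 3. With all 3 libraries, 4 of 25 S phase genes fell against untransfected cells and 3 against shNMC, and 0 rose. Without that library 10 fell and 0 rose against untransfected cells, and 8 fell and 1, Fen1, rose against shNMC, where 9.71% and 11.8% of all genes fell. The polymerase gene Pola1 was then at -0.46 (adjusted p = 0.00083) and -0.47 (adjusted p = 0.000532). Of the 20 processing genes 1 rose and 3 fell against untransfected cells and 0 were called against shNMC, and without the library 1 rose and 4 fell, and 0 rose and 2 fell. Slbp was at -0.10 (adjusted p = 0.65) and Npat at -0.10 (adjusted p = 0.445) against untransfected cells, and at -0.08 (adjusted p = 0.712) and -0.18 (adjusted p = 0.0969) without it. Of 15 histone chaperone genes 3 and 4 fell and 0 rose, and without it 4 and 3 fell and 1 rose in each comparison. Of 12 replication-independent histone genes edgeR called 0 in both comparisons with all libraries. An unadjusted p under 0.05 was reached by 0 against untransfected cells and 2 against shNMC, where DESeq2 called H2afj. Without the library, 2 of 13 tested rose in each comparison, the oocyte linker histone gene H1foo and H2afx, which encodes the histone that is phosphorylated at DNA breaks, and H2afj fell against shNMC (log2 -0.42, adjusted p = 0.0235). H2afx was at 0.38 (adjusted p = 0.0213) and 0.34 (adjusted p = 0.0323). Trophectoderm markers summed to 81.2 and 112 CPM in shRing1b replicates 1 and 2 and to 48.9 in the library labelled replicate 3, against 18.3 to 28.9 in untransfected cells. In each comparison 8 of 9 were called higher, and without that library 7 against untransfected cells and 9 against shNMC; their part in the histone values was not tested.

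The control hairpin itself made no called change in these genes. Between shNMC and untransfected mESCs edgeR and DESeq2 called 0 of 24 members, edgeR called 0.00614% of all genes, and 3 members passed an unadjusted p under 0.05: Hist1h1b at 0.90, Hist2h2be at 0.69 and Hist1h1a at -0.67 log2. These groups also lie in the different depth sets, which cannot be told apart from the hairpin.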

How the data were processed

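Poly-A RNA of 24 libraries was measured as read counts per gene symbol. The deposited values are unscaled counts, 1 table per library. The submitters' processing notes name build mm9 and, without roles, HTSeq 0.6.1p1, DESeq2 1.6.3, STAR 2.3.1z13, bcl2fastq 1.8.4 and SAMtools 1.2. No source used here gives the annotation or the strand setting of the counting. The 5 entries that name no gene were left out. Members were symbols matching Hist1h to Hist4h at the start of the name. Members and lists were chosen with earlier results of these data known.

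Counts were fitted with edgeR 4.0.16 (R 4.3.3, limma 3.58.1): filterByExpr by group, TMM, robust quasi-likelihood F test, 1 mean per group over 24 libraries, two-sided, Benjamini-Hochberg over 16280 genes, in 14 comparisons. The common biological coefficient of variation was 0.145 and residual degrees of freedom were 16. SE was taken from the change and its F statistic. The script was tested on simulated data. In full are given the 8 most abundant members and up to 6 members with the lowest adjusted p per comparison, and of other lists up to 4 genes plus Slbp, Npat, Casp8ap2, H2afx, H2afz, H3f3a and H3f3b. Alternatives were other scalings and filters, DESeq2 1.42.0, a replicate block, the compared groups alone, and each library left out; leaving out the library labelled shRing1b replicate 3 as a reported comparison was added after seeing the data. Replicates differed by more than counting noise over all genes (mean chi-square per gene 6.33 to 108). Same-numbered libraries deviated together (all 3 correlations over 0.1) in RA in shCdk8 (0.36, 0.17 and 0.37), shCdk8 after RA (0.47, 0.29 and 0.54) and shMed12 against shCdk8 in mESCs (0.20, 0.16 and 0.34). GENCODE M21 transcripts and RefSeq promoters are of GRCm38, not mm9, and served for sequences and names only.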

Additional observations from a re-analysis of the deposited data

How the results depend on the processing

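Of 44 called changes of members, 11 were called with the same sign under every alternative in which the member was tested, and 0 changed sign. Some of the 11, such as Hist3h2ba for RA in shNMC, were tested under 14 alternatives, and others, such as Hist2h2be for shMed12 in mESCs, under 15. Among alternatives other than leaving out a library, 322 member values stayed on their side of the threshold and 40 lost the call; among those that left out a library, 155 stayed and 109 lost it. With each library left out, the number of called members ranged from 1 to 3 for RA in shNMC (3 with all libraries), 2 to 3 for RA in shMed12 (3), 1 to 4 for RA in shCdk8 (4), 1 to 3 for shMed12 in mESCs (3), 3 to 4 for shMed12 after RA (4), 0 to 1 for shCdk8 in mESCs (0) and after RA (1), 0 to 3 for shMed12 against shCdk8 in mESCs (3) and 6 to 7 after RA (8). It ranged from 1 to 12 for shRing1b against untransfected cells (7) and 2 to 12 against shNMC (8), and stayed at 0 for shNMC against untransfected cells and for both interactions.

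With no TMM factor 6 members were called for RA in shNMC, 5 for RA in shMed12 and 0 for shCdk8 after RA, and with upper-quartile factors 5 for RA in shNMC. Of all 16280 genes, 4438 were called higher and 3925 lower for RA in shNMC with TMM. These were 6775 and 1878 with no TMM factor, and 5831 and 2400 with upper-quartile factors. With no TMM factor they were 4784 and 1662 for RA in shMed12, and 777 and 472 for shCdk8 after RA. Without the filter on low counts 6 were called for RA in shNMC, 0 for shCdk8 after RA and 1 for shMed12 against shCdk8 in mESCs. A filter of 1 CPM tested fewer members: it called 1 for RA in shMed12, 1 for RA in shCdk8, 0 for shCdk8 after RA, 1 and 4 for shMed12 against shCdk8 in mESCs and after RA, and 4 and 5 for shRing1b against untransfected and shNMC cells. DESeq2 called 0 for shCdk8 after RA. With only the groups compared 5 were called for RA in shMed12, 5 for shMed12 in mESCs, 1 for shCdk8 in mESCs, 1 for the interaction of shMed12 and RA, and 0 for both shRing1b comparisons. With no TMM factor Npat and Casp8ap2 turned from lower to higher for RA in shNMC (log2 0.0139 and 0.00145, adjusted p = 0.891 and 0.99). Unless the construction shows it, the cause was not tested.

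A replicate block over all 24 libraries called 5 members for shMed12 against shCdk8 in mESCs, and left the number called within 1.5 times in the other comparisons. The replicate block on only the groups compared called 7 for RA in shNMC, 6 for RA in shMed12, 5 for shMed12 in mESCs, 3 for shCdk8 in mESCs, 5 for shCdk8 after RA, 6 for shMed12 against shCdk8 in mESCs, 1 for the interaction of shMed12 and RA, and 0 for both shRing1b comparisons. For DESeq2, the filters, the replicate blocks and the groups alone, the share of all genes called is not given here. The same holds for single libraries left out, other than shRing1b replicate 3. Member counts under these alternatives therefore do not single out the members. A median of at least 10 reads per library was reached by 13 of 68 members, which limits the precision of the others.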
